A study of Mus musculus with 9 samples.

Results

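The nuclear-encoded subunits of the mitochondrial respiratory chain and of ATP synthase were examined in mouse prostate cancer cell lines. Members were chosen by symbol. They were the annotated probe sets (groups of short probes that measure 1 transcript) whose single gene symbol begins with Nduf, Uqcr, Cox4 to Cox8 or Atp5, or is Sdha, Sdhb, Sdhc or Sdhd, together with Cyc1 and Cycs. The rule found 104 of 41345 probe sets, which stand for 91 of 22180 named genes. Of these, 81 encode subunits or cytochrome c, 8 are Ndufaf genes for complex I assembly factors, and 2 are pseudogenes. By complex the subunit genes numbered 32 for complex I, 4 for complex II, 8 for complex III, 19 for complex IV and 17 for complex V, with Cycs apart. After the genes with the lowest intensities were left out, 86 of the 91 were tested, and these were 78 subunit genes and the 8 assembly factors. Cox7b2, Cox8b, Cox8c, Uqcrh-ps1 and Atp5c1-ps did not pass that filter. The subunits encoded by mitochondrial DNA were not analysed here.

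RNA of cultured cells was measured on 9 arrays of the type Affymetrix Mouse Gene 2.0 ST. All lines derive from MYCCaP, a mouse prostate cancer line from a tumour that arose in a mouse with a MYC transgene driven in the prostate epithelium. The AZD1208 group was 3 recurrent lines from castrated mice that received AZD1208, an inhibitor of the PIM kinases, and the Vehicle group was 3 recurrent lines from castrated mice that received vehicle. Both recurrent groups were labelled biological replicates and were grown without dihydrotestosterone, the androgen. The parental group was MYCCaP itself, grown with dihydrotestosterone, and its 3 arrays were technical replicates that counted as 1 sample. The labels did not say whether each line came from its own mouse, or whether drug was kept in the culture. Recurrence, castration of the host and the absence of dihydrotestosterone cannot be told apart in a comparison with the parental line.

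The respiratory chain passes electrons to oxygen and stores the energy as a proton gradient across the inner mitochondrial membrane. Complex I takes electrons from NADH and complex II takes them from succinate. Both pass them to coenzyme Q, complex III hands them to cytochrome c, complex IV passes them to oxygen, and complex V uses the gradient to make ATP. Each complex has a catalytic core and, apart from complex II, a set of smaller accessory subunits needed for assembly or stability. MYC and the factors NRF1, GABP and YY1 are known to bind promoters of these genes.

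All values are log2 intensities as deposited, so a difference of 1 is a doubling of the signal. They depend on the probes and are compared between samples, never between genes. Over the 6 recurrent lines the median SD of a subunit gene was 0.19, against 0.23 for all 15526 genes tested, and between the technical parental arrays it was 0.11, against 0.09. The array medians lay between 6.22 and 6.36. The array of AZD1208 3 had the narrowest interquartile range, 2.87 against 2.98 to 3.12 on the others. The third parental array read higher for the members, with a median of 0.08 above the parental mean over the 86 genes, while over all genes tested its median was -0.01. Of 9 prostate epithelial markers 6 were tested. Cldn3, a tight junction protein, lay between 11.7 and 12.4 in the recurrent lines, against a mean of 12.4 in the parental line. Cdh1 read 6.45 to 6.96 and Krt18 6.47 to 6.91 in the recurrent lines. These 3 genes were below the parental mean in all 6 lines. Krt8, at 8.24 to 10.44, and Cldn7, at 5.70 to 5.97, lay on both sides of their parental means. Cldn7 was thus close to the filter limit of 5.81. Epcam, an epithelial adhesion protein, did not pass the filter.

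Promoter sequences of 4 members on which the results turn are given next, from RefSeq on the build GRCm38.p6. Each shows the 150 bases before the annotated start, 5′ to 3′ on the gene's strand. Ndufa1 differed most between recurrent and parental cells. Atp5k, Uqcrh and Sdhd stand for complexes V, III and II, and hold a match in capitals to one of the motifs searched: GCATGCGC for NRF1, or GCGCATGC on the other strand, and CCGGAAG for ETS factors such as GABP, or CTTCCGG on the other strand. The Ndufa1 window, chrX:37191239-37191388 on the minus strand, held no match. The Atp5k window, chr5:108434400-108434549 on the minus strand, held an NRF1 match on each strand, and these overlap. The windows of Uqcrh, chr4:116075071-116075220, and Sdhd, chr9:50603850-50603999, both on the minus strand, held an ETS match each.
Ndufa1: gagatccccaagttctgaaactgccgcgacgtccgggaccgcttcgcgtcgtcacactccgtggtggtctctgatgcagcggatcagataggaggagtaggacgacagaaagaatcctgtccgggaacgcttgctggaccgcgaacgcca
Atp5k: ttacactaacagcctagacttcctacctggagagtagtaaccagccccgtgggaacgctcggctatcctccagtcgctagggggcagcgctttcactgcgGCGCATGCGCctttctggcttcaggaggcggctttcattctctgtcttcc
Uqcrh: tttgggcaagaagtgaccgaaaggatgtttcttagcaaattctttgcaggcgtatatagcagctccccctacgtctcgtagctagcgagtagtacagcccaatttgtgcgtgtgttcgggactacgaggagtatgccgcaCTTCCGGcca
Sdhd: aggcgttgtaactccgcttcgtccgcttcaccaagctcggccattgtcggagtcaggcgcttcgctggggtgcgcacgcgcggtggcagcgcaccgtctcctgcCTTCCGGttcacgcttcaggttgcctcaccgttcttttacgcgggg

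The full windows searched ran from 250 bases before to 50 bases after the start, on both strands, with AAGATGGC as a further motif for YY1. Of the 91 genes, 73 had a window, and some had several, giving 78 windows. The NRF1 motif stood in 16.7% of the members' windows and in 2.71% of all 32851 windows. The ETS motif stood in 24.4% of the members' windows against 8.86% of all, and the YY1 motif in 12.8% against 2.75%. At least one motif was held by 44.9% of the members' windows and by 13.3% of all windows. The members' windows also held more G and C, with a median of 58.5% against 52.7% in all windows. A match is a run of letters, not a measured binding site.

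The comparison of recurrent lines with the parental line asks which subunits differ once tumours have come back after castration. No member passed the test. Ndufa1, an accessory subunit of the membrane arm of complex I needed for its assembly, stood far above its parental level in all 6 recurrent lines. The catalytic or core subunits of complexes I, II, III and V were mostly lower in the recurrent lines, though in complex I by a median of only -0.05. The other subunits were more often higher. Over all genes, limma called 0 of 15526 (0%) at an adjusted p under 0.05, and 429 (2.76%) had an unadjusted p under 0.05. Of the 86 members tested, 3 had an unadjusted p under 0.05, and all 3 were higher in the recurrent lines, a direction in which 2.02% of all genes were below that value.

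Ndufa1 read 9.31, 8.96 and 8.91 in the AZD1208 lines, 9.63, 9.33 and 8.95 in the Vehicle lines, and 7.59, 7.61 and 7.65 on the parental arrays. Every recurrent line lay more than 1 log2 unit above every parental array, and the AZD1208 and Vehicle lines overlapped. The recurrent lines were higher by 1.57 ± 0.29 on the log2 scale (SE, 6 lines against 1 parental sample), which is 2.96-fold, with an unadjusted p of 0.000773 and an adjusted p of 0.966 in limma. By unadjusted p Ndufa1 was rank 11 of 15526 genes, and by size of the difference rank 83. With 1 line or 1 parental array left out in turn, the difference stayed between 1.49 and 1.66. Set against the parental sample, which both comparisons share, the AZD1208 lines differed by 1.44 and the Vehicle lines by 1.69.

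The genes beside Ndufa1 on the X chromosome did not show such a difference. Rnf113a1, which overlaps the start of Ndufa1 in RefSeq and holds the Ndufa1 promoter window printed above, differed by -0.08 between recurrent and parental cells (SE 0.19). Rpl39, which encodes a ribosomal protein, differed by -0.02, and Nkap, which encodes a nuclear regulator of transcription, by 0.17. The other X-linked members were Ndufb11, a membrane arm subunit of complex I, at 0.18, and Cox7b, a small subunit of complex IV, at 0.09.

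**Figure D1:**
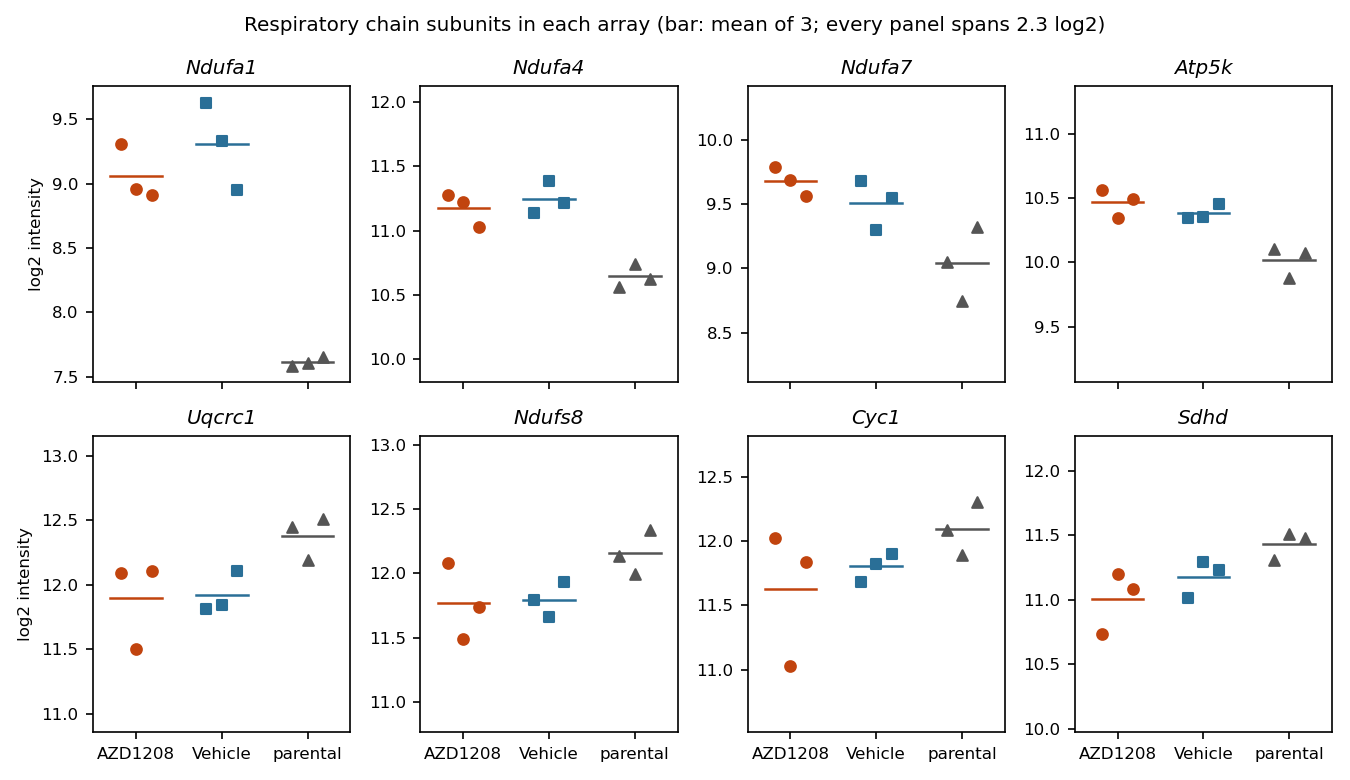
Log2 intensity (vertical axis) of 8 subunit genes on each of the 9 arrays, with AZD1208 lines as circles, Vehicle lines as squares, parental technical arrays as triangles, and bars for the mean of 3. Ndufa1 lies between 8.91 and 9.63 in the recurrent lines, against 7.59 to 7.65 on the parental arrays. For the other genes the recurrent and parental means differ by less than 1 log2 unit. Single arrays can lie further apart, as Cyc1 does at 11.03 in AZD1208 2 against 12.30 on the third parental array.

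Ndufa4, long listed with complex I and now placed with complex IV, read 11.28, 11.23 and 11.03 in the AZD1208 lines, 11.14, 11.38 and 11.22 in the Vehicle lines, and 10.57, 10.74 and 10.63 on the parental arrays. Its recurrent and parental values did not overlap. The difference was 0.57 ± 0.20 (SE), with an unadjusted p of 0.0246 and an adjusted p of 0.9997 in limma. Ndufa7, an accessory subunit of the matrix arm of complex I, read 9.79, 9.69 and 9.56 in the AZD1208 lines, 9.68, 9.29 and 9.55 in the Vehicle lines, and 9.05, 8.75 and 9.32 on the parental arrays. Here the highest parental array lay above the lowest Vehicle line. The difference of 0.55 ± 0.21 (SE) had an unadjusted p of 0.0353.

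Complex I had 32 subunit genes tested, of which 19 were higher and 13 lower in the recurrent lines, with a median difference of 0.07. Over all genes tested 45.6% were higher and 54.4% lower, with a median of -0.02. The accessory subunits Ndufc1 and Ndufa13, both of the membrane arm, and Ndufa6, of the matrix arm, were above the parental mean in all 6 lines, by 0.34, 0.39 and 0.37. Ndufs8, which carries iron-sulphur clusters in the catalytic core, was below it in all 6 lines, by a difference of -0.37. It read 12.08, 11.49 and 11.74 in the AZD1208 lines, 11.79, 11.66 and 11.93 in the Vehicle lines, and 12.14, 11.99 and 12.34 on the parental arrays. The lowest parental array was thus below the highest AZD1208 line. Ndufa9, an accessory subunit at the junction of the arms, was also below the parental mean in all 6 lines, with a difference of -0.40.

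The 4 subunits of complex II were all lower in the recurrent lines, with a median difference of -0.19. Sdhd, a membrane anchor of the complex, read 10.73, 11.20 and 11.08 in the AZD1208 lines, 11.02, 11.29 and 11.23 in the Vehicle lines, and 11.31, 11.51 and 11.48 on the parental arrays. No recurrent line reached the lowest parental array. The difference was -0.34 ± 0.24 (SE), with an unadjusted p of 0.188. Sdha, which holds the flavin and oxidises succinate, differed by -0.20 and Sdhb, the iron-sulphur subunit, by -0.18, each with all 6 lines below the parental mean. Sdhc, the other anchor, differed by -0.05 and lay above the parental mean in 2 lines.

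Complex III divided by the role of its subunits. Uqcrc1 and Uqcrc2, the large core proteins, and Cyc1 and Uqcrfs1, the cytochrome c1 and Rieske iron-sulphur proteins that carry the electrons, were all lower in the recurrent lines, with a median difference of -0.36 over the 4. Of the small subunits Uqcrh, Uqcrq and Uqcr11 were higher by 0.30, 0.29 and 0.29, and Uqcrb differed by -0.21. Uqcrc1 read 12.09, 11.50 and 12.11 in the AZD1208 lines, 11.82, 11.84 and 12.11 in the Vehicle lines, and 12.45, 12.19 and 12.51 on the parental arrays. All 6 lines lay below every parental array, for a difference of -0.47 ± 0.28 (SE) and an unadjusted p of 0.129. Cyc1 read 12.02, 11.03 and 11.84 in the AZD1208 lines, 11.68, 11.82 and 11.90 in the Vehicle lines, and 12.08, 11.89 and 12.30 on the parental arrays. AZD1208 2 was the lowest by a wide gap, and AZD1208 1 and Vehicle 3 lay inside the parental range. Uqcrh, which helps cytochrome c to dock, read 9.49, 9.18 and 9.13 in the AZD1208 lines, 9.37, 9.36 and 9.48 in the Vehicle lines, and 8.97, 8.89 and 9.25 on the parental arrays. Its lowest lines lay inside the parental range, and all 6 lay above the parental mean. In each of the 17 alternative settings of the fit the 4 core and redox subunits stayed lower and 3 of the 4 small subunits stayed higher. Settings that alter only the estimate of the spread, such as other priors, could not change a difference, and all 17 share the parental sample.

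Of the 16 complex IV genes tested, 9 were higher and 7 lower in the recurrent lines, with a median difference of 0.05. Cox4i1, the common isoform of a subunit that regulates the enzyme, read 12.40, 12.15 and 12.38 in the AZD1208 lines, 12.40, 12.19 and 12.39 in the Vehicle lines, and 12.01, 11.87 and 12.13 on the parental arrays. All 6 lines lay above every parental array, for a difference of 0.31 ± 0.20 (SE) and an unadjusted p of 0.162. Its paralogue Cox4i2, known from lung and low oxygen, differed by 0.10. Cox6a1 was higher in all 6 lines, by 0.30, while its muscle and heart paralogue Cox6a2 differed by -0.11. Cox6b1 differed by 0.12 and its testis paralogue Cox6b2 by 0.07. Cox7a2l, which joins complexes III and IV into larger assemblies, was above the parental mean in all 6 lines, by 0.25. Its relatives Cox7a2, the common isoform, and Cox7a1, the muscle and heart isoform, differed by 0.03 and -0.09. Cox8a, the common isoform, differed by -0.09, while its relatives Cox8b and Cox8c were dim, at 5.05 to 5.75 and 5.02 to 5.59 in the recurrent lines against parental means of 5.67 and 5.22. Ndufa4l2, the relative of Ndufa4 known to respond to low oxygen, differed by -0.01. Cox7b2, the testis relative of Cox7b, read 3.003 to 3.26 in the recurrent lines, above the parental arrays at 2.90 to 2.97, but at these dim values it was not tested.

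Of the 17 complex V genes tested, 9 were higher and 8 lower in the recurrent lines, with a median difference of 0.08. The F1 part, which holds the catalytic head and the central stalk, had 4 of its 5 subunits lower, with a median of -0.11. These 4 were Atp5a1 and Atp5b of the head, where ATP is made, and Atp5c1 and Atp5d of the central stalk. The peripheral stalk and membrane subunits had 7 of 9 higher, with a median of 0.13. Atp5k, a small membrane subunit known from dimers of the enzyme, read 10.56, 10.34 and 10.49 in the AZD1208 lines, 10.34, 10.35 and 10.45 in the Vehicle lines, and 10.10, 9.88 and 10.07 on the parental arrays. The recurrent and parental values did not overlap, and the difference was 0.41 ± 0.19 (SE), with an unadjusted p of 0.065. Atp5l, another small membrane subunit, lay above the parental mean in all 6 lines, by 0.46. Atp5e, of the central stalk of F1, differed by 0.40, but its parental arrays read 8.89, 8.91 and 9.93 and so spanned nearly all lines. Cycs, the mobile electron carrier cytochrome c, differed by -0.18 with its brightest probe set. A further Cycs probe set lay below the parental mean in all 6 lines and differed by -0.50, and another differed by 0.23, so the direction of Cycs was not settled. Cycs was read by 5 probe sets, of which 2 held the same values on every array.

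The division seen in complexes III and V was then counted over all complexes, with the core subunits listed after their values had been seen, so the count is a description without a test. The core was taken as 6 catalytic subunits of complex I, the 4 of complex II, the 4 core and redox subunits of complex III and the 5 of F1. The 5 of F1 include its central stalk, and complex IV gave no gene to this core. Of these 19 genes, 17 were lower in the recurrent lines (89.5%), with a median difference of -0.16. The 6 of complex I had 5 lower, but their median was -0.05, against -0.02 over all genes tested. Of the 19, 6 differed by more than their SE, and of the other 59 subunit genes 16 did. Of the other 59 subunit genes, 38 were higher (64.4%), with a median of 0.10. These 59 are called accessory here but also hold Cycs and the c ring genes Atp5g1, Atp5g2 and Atp5g3 of complex V. None of the 19 core genes lay above the parental mean in all 6 lines and 7 lay below it in all 6. Of the other 59, 15 lay above it in all 6 lines and 3 below. Over all genes tested 11.8% lay above the parental value in all 6 lines and 10.8% below. Line by line the median of the core genes was -0.07, -0.36 and -0.18 in the AZD1208 lines and -0.21, -0.11 and 0.04 in the Vehicle lines. The median of the other subunits was 0.09, 0.02 and 0.08 in the AZD1208 lines and 0.10, 0.09 and 0.21 in the Vehicle lines. In every line the core median was thus the lower of the pair, though Vehicle 3 had both above 0. Over the 17 alternative settings the count of core genes that were lower ran between 14 and 18 of 19. All these differences share the single parental sample. On the third parental array the accessory genes read 0.09 above the parental mean (median) and the core genes 0.05, and without that array the medians were 0.12 for the accessory and -0.16 for the core genes.

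**Figure D2:**
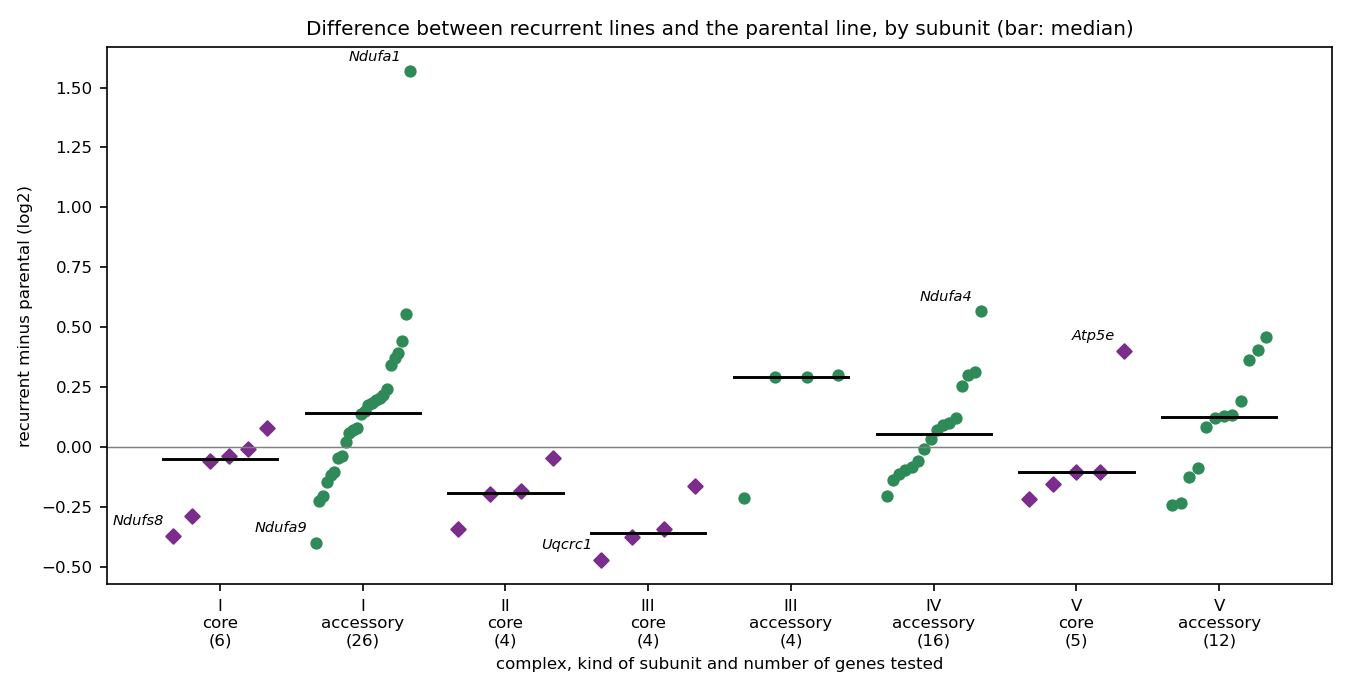
Difference between recurrent lines and the parental line (log2, vertical axis) for each of the 77 subunit genes tested in complexes I to V. Core subunits are diamonds, and bars are medians. The other subunits, labelled accessory and including the c ring of complex V, are circles. The core subunits of complexes II and III all lie below 0, and Ndufa1 stands alone at 1.57.

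The 8 complex I assembly factors chosen by symbol were all lower in the recurrent lines, with a median difference of -0.15. Their medians by line were -0.04, -0.40 and -0.40 in the AZD1208 lines and -0.20, -0.01 and 0.09 in the Vehicle lines, so that Vehicle 3 did not share the direction. Of a wider list of 18 complex I assembly factors, which holds these 8, 14 were lower, and Ecsit, which acts in complex I assembly, differed by -0.71. For complex IV assembly 15 of 22 were lower, though Cox14, which helps to make the first subunit of the enzyme, differed by 0.52. For complexes II, III and V, 7 of 13 assembly factors were higher. None of these genes passed the test.

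The mitochondrial ribosome, which translates the subunits encoded by mitochondrial DNA, had 59 of 70 genes lower in the recurrent lines, with a median difference of -0.19, and 19 of them lay below the parental mean in all 6 lines. Vehicle 3 went the other way, with a median of 0.06 and 42 of 70 genes above the parental mean, while the medians of the other lines lay between -0.41 and -0.13. Mrps27, a small-subunit protein, differed by -0.89, with an unadjusted p of 0.0433. Of the tricarboxylic acid cycle enzymes, which supply NADH and succinate, 11 of 15 were lower, with a median of -0.13, although 3 of the 6 lines had medians above 0. Among them Idh3a, a subunit of isocitrate dehydrogenase, differed by -0.63 and Ogdh, of the oxoglutarate dehydrogenase, by -0.39. Of 12 genes of coenzyme Q synthesis 8 were lower, and Coq9, a lipid-binding member, differed by 0.36. The coenzyme Q and complex IV assembly lists likewise had medians above 0 in 3 of the 6 lines. Of 16 regulators of mitochondrial biogenesis 10 were lower. Pprc1, a coactivator related to PGC-1, differed by -0.48 and Gabpb1, the partner subunit of GABPA, by 0.58. Against 54.4% of all genes that were lower, the mitochondrial ribosome had 84.3% and the assembly factors of complex I 77.8%.

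The comparison of AZD1208 lines with Vehicle lines asks what the drug given to the mice left different in the recurrent lines. No member passed the test and none had an unadjusted p under 0.05. Over all genes limma called 0 of 15526 (0%) at an adjusted p under 0.05, and 81 (0.522%) had an unadjusted p under 0.05. Most subunits were slightly lower in the AZD1208 lines, 60 of 78 (76.9%), against 54.8% of all genes tested, with a median difference of -0.08 against -0.02. Brighter genes were more often lower in general. With the dimmer 50% of genes left out, 57 of 73 subunits (78.1%) and 63.5% of all genes were lower, with medians of -0.09 and -0.06. The count of 60 rested on single lines. Without AZD1208 2 it was 41 of 78, without Vehicle 3 it was 45 of 78, and with array quality weights it was 47 of 78.

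By complex the lower subunits were 27 of 32 in complex I, with a median difference of -0.09, all 4 in complex II, with -0.16, and all 8 in complex III, with -0.16. In complex IV they were 10 of 16, with -0.02, and in complex V 11 of 17, with -0.04. These counts also rested on single lines. Complex I had 17 of 32 lower without AZD1208 2 and likewise without Vehicle 3, complex IV had 5 of 16 without AZD1208 2, and complex V had 7 of 17 without Vehicle 2. The 8 assembly factors were all lower, with a median of -0.18. In complex I the 6 members of smallest p were the acyl carrier Ndufab1 at -0.24, the assembly factor Ndufaf8 at -0.24, Ndufa1 at -0.25, the membrane arm subunit Ndufb5 at -0.15, Ndufa6 at -0.17 and Ndufa7 at 0.17. All had an adjusted p of 0.99997 in limma.

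The groups did not overlap for 6 members, 4 lower and 2 higher in the AZD1208 lines. Over all genes 1.98% were lower without overlap and 1.41% higher without overlap. Cox6b1, which faces the intermembrane space and lies at the contact within the complex IV dimer, had the smallest unadjusted p of the members. It read 11.56, 11.39 and 11.56 in the AZD1208 lines, against 11.74, 11.77 and 11.83 in the Vehicle lines. The difference was -0.27 ± 0.14 (SE, n = 3 each), with an unadjusted p of 0.0876 in limma and a 95% interval of -0.60 to 0.05. The AZD1208 mean was 11.50 and the Vehicle mean 11.78, beside a parental mean of 11.52.

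Uqcrc2 read 11.79, 11.65 and 11.90 in the AZD1208 lines, against 11.92, 11.93 and 12.09 in the Vehicle lines, for a difference of -0.20 ± 0.15 (SE). The groups were separated by a gap narrower than the spread within either group. Atp5g2, one of the genes for the c ring that turns in the membrane, went the other way, with 12.71, 12.65 and 12.82 in the AZD1208 lines against 12.39, 12.53 and 12.64 in the Vehicle lines. The difference was 0.20 ± 0.15 (SE), and again the gap between the groups was small. Ndufv3, an accessory subunit of the matrix arm, was also higher without overlap, by 0.14. Ndufb5 and Ndufc1 were lower without overlap, by differences of -0.15 and -0.09. With 3 lines in each group, the smallest p that an exact permutation test could give for any of these genes is 0.1.

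The largest difference of a member was that of Atp5mpl, a small membrane subunit of ATP synthase. It read 9.56, 9.16 and 8.48 in the AZD1208 lines, against 9.26, 9.59 and 9.59 in the Vehicle lines. AZD1208 3 was the low line and AZD1208 1 lay inside the Vehicle range. The difference of -0.41 ± 0.28 (SE) had an interval of -1.06 to 0.24. Cox5a and Cox5b, common subunits of complex IV, differed by -0.25 and -0.28. Sdhd and Sdhc differed by -0.18 each, Sdhb by -0.14, Uqcrq by -0.22, Uqcrb by -0.16, Cyc1 by -0.17, Atp5pb, of the peripheral stalk, by -0.17 and Cycs by 0.11. Each of their 95% intervals included 0.

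**Figure D3:**
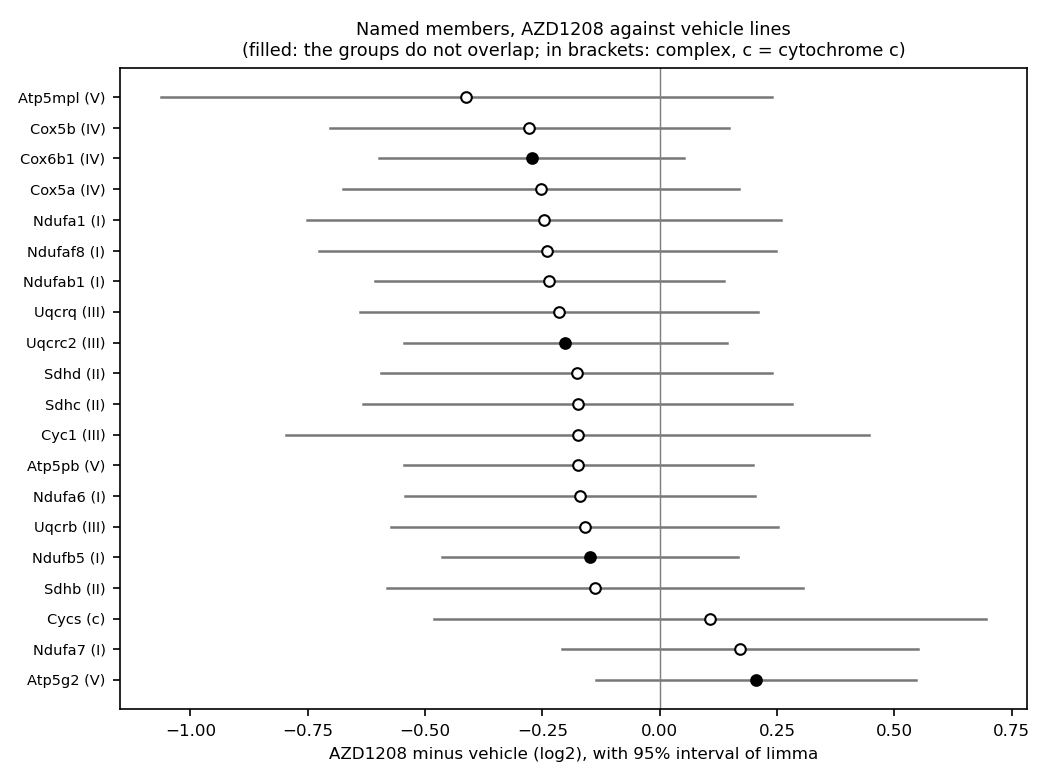
Difference between AZD1208 and Vehicle lines (log2, horizontal axis) for the 20 named members, with the 95% interval of limma as a line and filled points where the groups do not overlap. All intervals include 0, and the one nearest to leaving it out is that of Cox6b1, at -0.60 to 0.05.

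None of the genes of the other mitochondrial lists passed the test between AZD1208 and Vehicle lines, and their counts stand beside 54.8% of all genes that were lower and 63.5% of the brighter ones. Of the assembly factors, 15 of 18 were lower for complex I, 17 of 22 for complex IV and 11 of 13 for complexes II, III and V. Among these Sdhaf3, which helps to mature Sdhb, had the smallest unadjusted p, 0.0362, with a difference of -0.39, and Pet100, which acts in complex IV assembly, differed by -0.32. Of the mitochondrial ribosome 48 of 70 were lower (68.6%), with Mrpl32, a large-subunit protein, at -0.46. The regulators had 14 of 16 lower, among them Gabpb1 at -0.51 and Twnk, the mitochondrial DNA helicase, at -0.31. Their medians from the parental line were 0.02, -0.07 and -0.14 in the AZD1208 lines and -0.17, -0.01 and 0.18 in the Vehicle lines. In the regulator list and each assembly list Vehicle 3 had the highest median, and Vehicle 1 lay below AZD1208 1. These counts were not repeated with a line left out. The tricarboxylic acid cycle had 10 of 15 lower (66.7%) and coenzyme Q synthesis 6 of 12, and the shares of the ribosome and the cycle were near that of the brighter genes.

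The lines of 1 group differed among themselves by more than the groups did. The median difference from the parental line over the 78 subunits was 0.04, -0.09 and 0.02 in the AZD1208 lines, and -0.01, 0.03 and 0.12 in the Vehicle lines. AZD1208 2 was the lowest and Vehicle 3 the highest. The contrast was widest in complex III, where the median of Cyc1 and Uqcrfs1 was -0.84 in AZD1208 2 and lay between -0.47 and -0.08 in the other lines. For complex II the medians were -0.17, -0.30 and -0.29 in the AZD1208 lines and -0.25, -0.11 and -0.06 in the Vehicle lines.

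Markers of fibroblasts varied between the lines. Of 10 such genes 8 were tested, and their mean level was 7.73, 8.71 and 7.69 in the AZD1208 lines, 8.21, 7.99 and 7.73 in the Vehicle lines and 7.16 in the parental line. A few genes with large differences weigh on these means. The median difference from the parental line was -0.09, 0.49 and 0.14 in the AZD1208 lines and 0.06, -0.19 and 0.32 in the Vehicle lines. In AZD1208 1 and in Vehicle 2, 3 of the 8 genes were above the parental line. Postn, a secreted matrix protein, was 12.7 in AZD1208 2 and between 7.86 and 10.5 in the other lines, against 5.36 in the parental line. Pdgfrb, a growth factor receptor, was 9.78 in AZD1208 2 and between 6.49 and 7.22 in the other lines, against 6.85 in the parental line. The other tested markers did not all follow these 2. In AZD1208 2, 4 of the 8 were above the parental line: Postn, Pdgfrb, Fbln2 and Pdgfra. Fbln2 and Pdgfra, at 8.18 and 9.84, were above the parental line, at 7.20 and 7.47, but below Vehicle 1, at 9.36 and 10.0. Fbln2, Postn and Pdgfra were above the parental mean in all 6 lines. Their unadjusted p against the parental line was 0.0313, 0.0350 and 0.0367 in limma, with an adjusted p of 0.9997. Twist2, a transcription factor, was at 8.38 in AZD1208 2, its lowest level among the lines. Col1a1, a collagen, was 7.33 in AZD1208 2 and 7.34 in the parental line. The collagens Col1a2 and Col3a1 were 6.84 and 6.61 in AZD1208 2, against 7.11 and 6.77 in the parental line. Dcn and Lum, matrix proteoglycans, did not pass the filter on the mean and were not tested. Dcn, however, read 6.68 in AZD1208 2, against 5.30 to 5.83 in the other recurrent lines and 5.37 in the parental line. In AZD1208 2 Lum read 4.58, against 4.69 in the parental line. Of the epithelial markers 6 of 9 were tested, and their mean was 8.51, 7.99 and 8.21 in the AZD1208 lines, 8.08, 8.24 and 8.30 in the Vehicle lines and 8.39 in the parental line. Of 8 myeloid markers 4 were tested. Their median from the parental line was -0.09 in AZD1208 1 and lay between 0.05 and 0.39 in the other lines. Adgre1 differed by -0.56 between AZD1208 and Vehicle lines, without overlap (unadjusted p 0.0413, adjusted p 0.99997 in limma). Lyz2, below the filter, read 7.10 and 6.97 in Vehicle 1 and 2, 6.42 in AZD1208 2 and 4.74 to 5.18 in the other lines. The endothelial medians lay between -0.29 and 0.09. In bulk RNA, fewer cells of a type and less RNA per cell cannot be told apart. The part of these markers in the subunit differences was not tested.

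**Figure D4:**
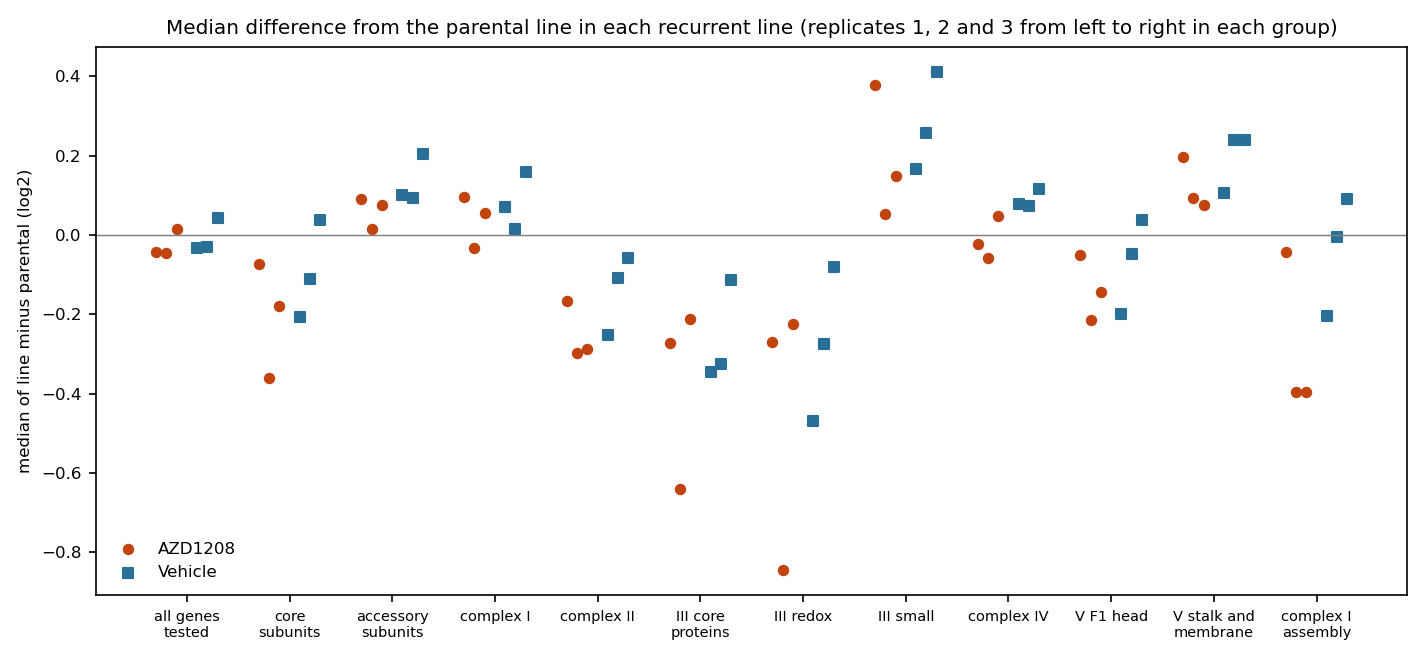
Median difference from the parental line (log2, vertical axis) in each recurrent line over all genes tested, the core and accessory subunits, the complexes and their parts, and the 8 complex I assembly factors, with AZD1208 lines as circles and Vehicle lines as squares. The set labelled V F1 head includes the central stalk of F1. AZD1208 2 lies lowest for the redox subunits of complex III at -0.84, and the small subunits of complex III lie above 0 in all 6 lines.

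The promoter motifs were set against the differences. Of the 71 tested genes with a promoter window, 35 held at least one motif and had a median difference of 0.08 between recurrent and parental cells, and the 36 without a motif had a median of -0.05. Between AZD1208 and Vehicle lines the medians were -0.10 with a motif and -0.07 without. For the ETS motif alone the recurrent against parental medians were 0.12 in the 19 genes with it and -0.06 in the 52 without. For YY1 they were 0.06 in the 10 with it and -0.04 in the 61 without. NRF1 went the other way, with -0.05 in the 13 genes with it and -0.02 in the 58 without. These medians are a description and were not tested. Both Uqcrh, at 0.30, and Sdhd, at -0.34, hold the ETS letters printed above in capitals, and Ndufa1, at 1.57, holds none of the 3 motifs.

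Of the 10 members with more than 1 probe set, the other 13 probe sets had the sign of the brightest in 9 cases for recurrent against parental cells and in all 13 for AZD1208 against Vehicle lines. Another 10 probe sets matched the rule but carried more than 1 symbol, among them those of Ndufs1, Ndufs5, Ndufs6, Uqcrb, Uqcr10 and Cox6c, and were not used. Several of these small genes are known to have processed copies in the genome, and the signal of a probe set shared with a copy cannot be assigned to the gene alone.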

How the data were processed

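The authors deposited 1 log2 intensity per probe set and array. The submitters' processing notes name oligo as the tool, and no source used here gives its version, settings or genome build. Values ran between 1.94 and 14.4 and carried no detection calls. The platform annotation gave 23521 probe sets 1 symbol and 1814 several, and it left 16010 unnamed. A gene took its probe set with the highest mean, and the 30% of genes with the lowest mean (below 5.81) were left out.

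The 3 AZD1208 lines, 3 Vehicle lines and the mean of the 3 parental arrays entered limma 3.58.1 under R 4.3.3 (lmFit, eBayes), with no term but group and 4 residual degrees of freedom. Benjamini-Hochberg adjustment ran over 15526 genes at a threshold of 0.05, and intervals are at 95%. P-values cover no more than the spread among these lines, the lone parental sample is assumed to vary like them, and the number of arrays sets the precision. The procedure was tested on simulated data, with 50 genes changed at each size. A change of 0.5 was called in 0% of them in both comparisons. A change of 1 was called in 44% for AZD1208 against Vehicle and in 24% for recurrent against parental cells. Unchanged genes that were called numbered 11 and 5 of these comparisons in turn.

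Named in each comparison were the 6 members of smallest p in complex I, the 3 in each other complex, Ndufa1, Cyc1, Cycs and the isoform families, and up to 3 genes per other list. Others, such as Ndufa9, Uqcr11, Ndufv3, the single F1 genes and the fibroblast and myeloid markers by line, were chosen after their values were seen. Members and lists were chosen with earlier results of these data known. Deviations of same-numbered AZD1208 and Vehicle lines from their group means correlated at 0.146, 0.118 and 0.532 over genes, which counts as pairing here, although AZD1208 2 and Vehicle 1 correlated at 0.264 and no label states a pairing. Alternatives were other normalizations, filters, probe set choices, weights, priors, a replicate block and leaving out each array. Promoter windows came from RefSeq on GRCm38.p6.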

Additional observations from a re-analysis of the deposited data

Results flagged for a closer look

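For the named members and the medians of complexes I to V, 48 sets of 6 recurrent lines were examined for a line far from the rest. Chance alone marks about 1 in 20, and 3 of the 48 were marked, which is near that share. In these 3 sets AZD1208 2 was the far line, always on the low side. For Cyc1 it read 11.03, against 11.68 to 12.02 in the other lines. For Sdhb it read 10.06, against 10.52 to 10.63. For Cox8a it read 11.85, against 12.15 to 12.31. The 3 genes belong to complexes III, II and IV.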

How the results depend on the processing

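The number of members past the threshold was 0 in both comparisons under every alternative but 1. With the technical parental arrays as 3 samples, which takes technical spread for spread between lines, 2 members passed for recurrent against parental cells, Ndufa1 (adjusted p = 0.00418) and Ndufa4 (adjusted p = 0.0473), and 156 of all genes. Array quality weights gave 1 gene there, not a member. With the replicate block, AZD1208 against Vehicle gave 0 calls, so the pairing changed no call. A block over balanced groups cannot change a difference, so the medians stayed as they were by construction (complex I at -0.093). It did change the p-values: 169 of all genes had an unadjusted p under 0.05 in limma, against 81 without it, and 0 members in both.

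For AZD1208 against Vehicle the complex I median was -0.021 with array weights, and with 1 array left out it ran between -0.15 and -0.012. For complex IV it then ran between -0.069 and 0.018. The sign turned with array weights for Sdhc (0.030) and Cyc1 (0.026). With 1 array left out, Sdhb ran between -0.24 and 0.045 and Cyc1 between -0.37 and 0.13, each above 0 without AZD1208 2, and Cycs ran between -0.096 and 0.29, below 0 without AZD1208 2 or Vehicle 1. For recurrent against parental cells Cox6b2 was -0.0025 with weights. With 1 array left out, Cox7a1 ran between -0.17 and 0.016, Cox7a2 between -0.017 and 0.11, and Ndufa4l2 between -0.055 and 0.017. The causes were not tested. The other named members that were tested kept their sign under the alternatives run, and Cox8b and Cox8c, which did not pass the filter, were not followed.

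Without Vehicle 3, 48.1% of all genes were lower in the AZD1208 lines, against 54.8% with it. With quantile normalization the counts were 48.8% of all genes and 52 of 78 subunits. With 3 lines in a group and 1 parental sample, differences of the size seen in most members could not be told from the spread between lines.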
